A study of Mus musculus with 12 samples.

Results

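The activin receptor ALK7, encoded by Acvr1c, was followed with its ligands and partners in gonadal white adipose tissue (GWAT) of mice with and without HOIP in adipocytes. Each of the 9 genes was taken by its symbol from the table of 55281 genes, and all 9 were found. They are the type I receptors Acvr1c and Acvr1b (ALK4), the type II receptors Acvr2a and Acvr2b, the ligand genes Inhba, Inhbb and Gdf3, the activin antagonist Fst and the transducer Smad3. The 4 groups were Hoip fl/fl AdipoQ.Cre- (WT) and Hoip fl/fl AdipoQ.Cre+ (HoipA-KO) mice, each on a control diet (CD, 14% fat) or a high-fat diet (HFD, 60% fat) for 16 weeks. All mice were males aged 22 to 24 weeks that carried the floxed Hoip alleles, and the diets began at 6 weeks of age. The Cre was driven by the adiponectin promoter and so acts in mature adipocytes only, while the RNA came from the whole tissue. There were 3 libraries per group, and each held the pooled RNA of 3 mice, so the spread between libraries is a spread between pools.

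Activins and GDF3 are secreted dimers of the TGF-β superfamily. They bind a type II receptor, which then phosphorylates a type I receptor, and the type I receptor phosphorylates SMAD proteins that enter the nucleus. ALK7 is a type I receptor for activin B, the dimer of the Inhbb product, and for GDF3. It is made mainly by mature adipocytes, where it is known for holding back lipolysis and the β-adrenergic receptor. ALK4 passes on the signals of activin A, the dimer of the Inhba product, and of activin B. Follistatin, the product of Fst, wraps around activins and keeps them from their receptors.

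The member genes lie on several chromosomes (build GRCm38, GENCODE annotation). Acvr1c lies on chr2:58267453-58357895 on the minus strand, Inhbb on chr1:119415465-119422248 on the minus strand, Gdf3 on chr6:122605403-122610087 on the minus strand and Inhba on chr13:16011851-16031621 on the plus strand. RefSeq promoters on GRCm38.p6 were matched for 7 of the 9 genes, and Gdf3 and Fst were the genes without a match. The 250 bases before the RefSeq start are shown for Acvr1c and Inhbb, the receptor and ligand genes that were lower in HoipA-KO mice on both diets, and for Inhba, whose estimates went the other way. For Acvr1c the GENCODE start lies inside this window, so part of the window falls within the gene as annotated there. Acvr1c has another RefSeq start as well, whose window is not shown. Capitals mark a TATAAA motif, and the sequences without capitals held none of the motifs searched.
Acvr1c, chr2:58357759-58358008, minus strand: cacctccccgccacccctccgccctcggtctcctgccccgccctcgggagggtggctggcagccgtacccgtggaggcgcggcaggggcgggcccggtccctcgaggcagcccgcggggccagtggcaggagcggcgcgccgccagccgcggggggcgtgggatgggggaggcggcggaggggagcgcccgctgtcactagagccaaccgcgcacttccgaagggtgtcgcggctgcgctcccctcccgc
Inhbb, chr1:119422249-119422498, minus strand: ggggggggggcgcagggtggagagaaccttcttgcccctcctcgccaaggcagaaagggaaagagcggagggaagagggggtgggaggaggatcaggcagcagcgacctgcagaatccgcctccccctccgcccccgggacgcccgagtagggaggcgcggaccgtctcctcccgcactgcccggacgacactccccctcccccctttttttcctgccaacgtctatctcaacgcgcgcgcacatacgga
Inhba, chr13:16011601-16011850, plus strand: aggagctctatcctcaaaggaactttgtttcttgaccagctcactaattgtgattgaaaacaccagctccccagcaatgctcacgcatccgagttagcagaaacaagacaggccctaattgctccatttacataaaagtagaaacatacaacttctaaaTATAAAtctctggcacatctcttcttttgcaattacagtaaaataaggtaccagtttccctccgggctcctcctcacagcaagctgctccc
The Acvr1c window had a GC content of 79.6% with 32 CpG dinucleotides, and that of Inhbb had 68.0% with 21. The Inhba window had 43.2% GC and 3 CpG, below the medians of 52.4% and 6 over all 32851 promoter windows of this length. The searched motifs, on both strands, were AGGTCA (14% of all windows), CCAAT (33.8%), CAGAC (42.2%), TGAGTCA (4.46%) and TATAAA (12.4%). The TATAAA of Inhba began 91 bases before the start. These matches describe the letters of the windows only.

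Between 30513500 and 60540260 estimated reads were counted per library. WT CD replicate 3 stood apart, with Pearson's r across genes of 0.785 and 0.794 to the other libraries of its group, against 0.971 to 0.993 within the other 3 groups and 0.907 between WT CD replicates 1 and 2. The tables of the authors' comparisons leave it out. The model therefore covers 11 libraries, and results over all 12 are given beside it where the call of a member differed and for several other genes and lists, while normalized levels (CPM, counts scaled to the library total and corrected by TMM factors) are shown for all 12. WT CD replicate 2 held 15492 summed CPM of 10 epididymal epithelium markers, against 0.135 to 1300 in the other 11 libraries. It is called the library with epididymal transcripts below, although other libraries held some too, led by HoipA-KO HFD replicate 1 with 1300. That HoipA-KO library also held 2667 summed CPM of 5 pericyte and smooth muscle markers, against 405 and 543 in replicates 2 and 3 of its group. Rnf31, the gene of HOIP, ranged from 12.6 to 20.7 CPM for WT CD, 17.9 to 19.8 for WT HFD, 17.9 to 21.7 for HoipA-KO CD and 19.1 to 22.5 for HoipA-KO HFD. The genotype changed it by -0.083 on the log2 scale on CD (SE 0.14, adjusted p = 0.654, edgeR) and by 0.13 on HFD (SE 0.12, adjusted p = 0.491, edgeR), so the count of the whole gene in whole tissue does not show the genotype. Counts of its single exons were not examined. Nothing in the labels says that the pools came from separate cohorts, and p-values measure the spread between these pools.

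All 9 genes passed the filter on low counts. In HoipA-KO against WT mice on CD, Gdf3 and Fst rose and Acvr1c and Inhbb fell, while the other 5 did not pass the threshold (adjusted p under 0.05 in the quasi-likelihood test of edgeR, with Benjamini-Hochberg adjustment over 18427 genes). Of all genes, 18.9% were higher and 18.8% lower in this comparison, so 2 of 9 in each direction is close to the background. Over 12 libraries 3 were higher and 2 lower, with 34.6% of 18074 genes called in either direction. On HFD, Fst rose and Acvr1c and Inhbb fell in HoipA-KO mice, against 4.2% of all genes higher and 7.62% lower. Over 12 libraries Acvr1c and Inhbb were called and Fst was not, with 2.89% of genes called in either direction. In WT mice, Acvr1b, Gdf3, Fst and Smad3 rose with HFD and no member fell, against 9.35% of genes higher and 5.47% lower. Over 12 libraries Inhba joined them, with 15.2% of genes called in either direction. Without WT CD replicate 2, the library with epididymal transcripts, 4 members were called on CD and 3 on HFD, but 1 for the diet in WT mice.

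**Figure D1:**
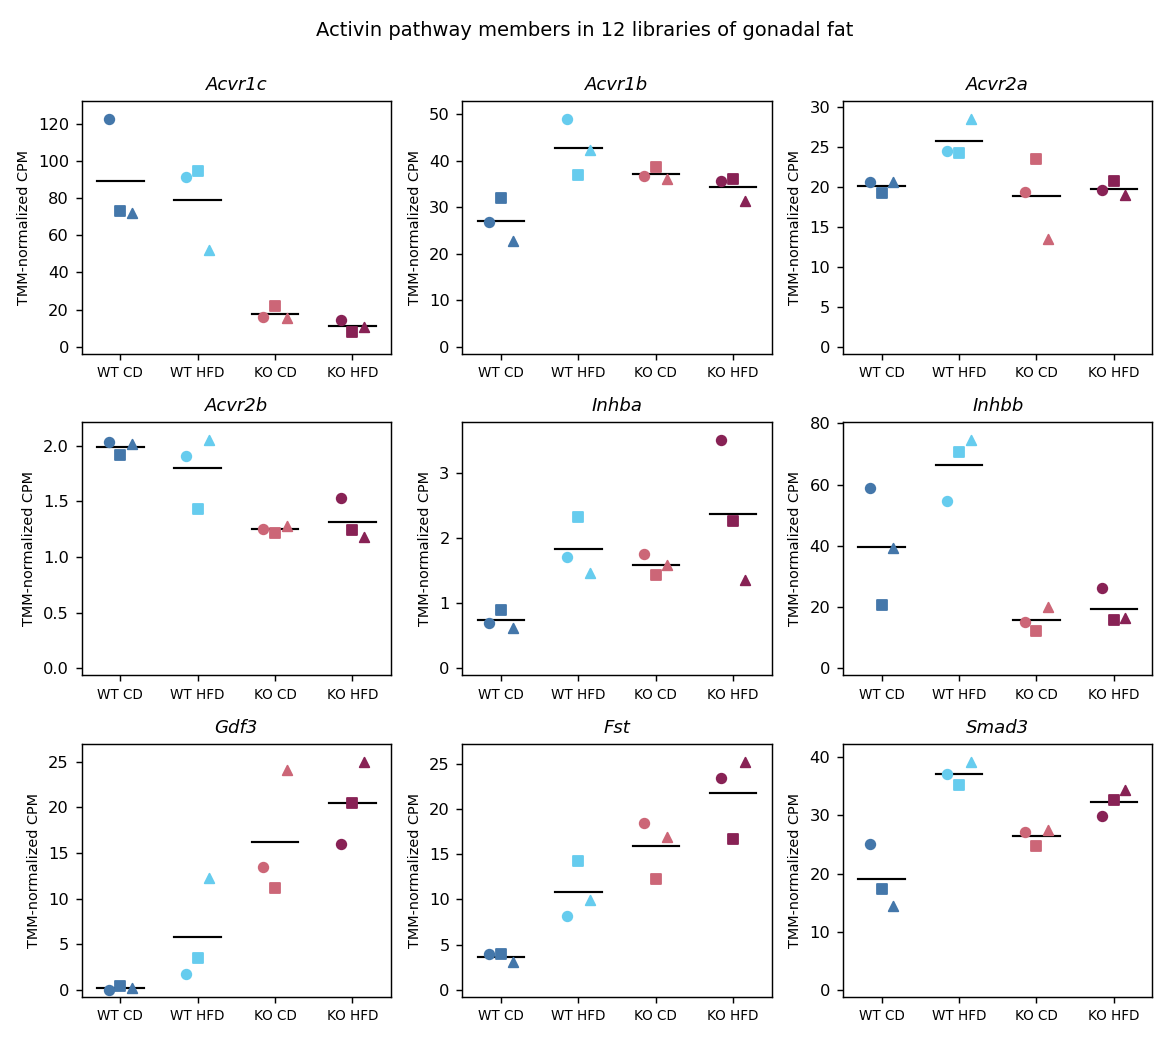
Each panel plots 1 of the 9 genes, with TMM-normalized CPM on the vertical axis and the 4 groups on the horizontal axis. Points are libraries (circle, square and triangle for replicates 1, 2 and 3) and bars are group means of 3 libraries. Every HoipA-KO library lies below every WT library for Acvr1c, and every WT CD library lies below all others for Gdf3, Fst and Inhba.

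Acvr1c, the ALK7 receptor, fell in HoipA-KO GWAT on both diets. The WT CD libraries held 123, 72.9 and 71.7 CPM in the order of replicates 1, 2 and 3, and those of WT HFD held 91.1, 94.4 and 51.9 CPM. HoipA-KO libraries held 16.0, 21.9 and 15.7 CPM on CD and 14.4, 8.27 and 10.6 CPM on HFD. The highest HoipA-KO library was thus below the lowest WT library on either diet. The log2 fold change of HoipA-KO against WT was -2.45 on CD (SE 0.33, adjusted p = 0.000786, edgeR), which is 5.45-fold lower. On HFD it was -2.84 (SE 0.32, adjusted p = 0.00723, edgeR), which is 7.14-fold lower. Over 12 libraries the adjusted p (edgeR) was 0.000646 on CD and 0.0169 on HFD, and both calls held with each library left out in turn. Diet itself did not move Acvr1c past the threshold. In WT mice the log2 fold change of HFD against CD was -0.30 (SE 0.33, adjusted p = 0.571, edgeR), and it was 0.14 without WT CD replicate 1. In HoipA-KO mice it was -0.69 (SE 0.30), with an unadjusted p of 0.0452 and an adjusted p of 1 (edgeR).

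Markers of mature adipocytes moved in the same direction as Acvr1c. All 10 of the list (Adipoq, Plin1, Cidec, Lipe, Pnpla2, Fabp4, Pparg, Retn, Cfd and Car3) were lower in HoipA-KO mice on CD and on HFD (9 and 8 of them over 12 libraries). Their median log2 fold changes were -2.08 and -2.04, beside medians of -0.055 and 0.058 over all genes. Their largest falls belonged to Cfd, the gene of adipsin, at -6.47 on CD and -4.96 on HFD. Retn, the gene of resistin, fell by 4.15 and 3.11 on the log2 scale, and Car3, a carbonic anhydrase of adipocytes, by 3.26 and 3.58. The summed level of the list ranged from 19998 to 70119 CPM for WT CD, 23743 to 35036 for WT HFD, 6663 to 9958 for HoipA-KO CD and 5784 to 7778 for HoipA-KO HFD. In bulk tissue, fewer adipocytes and less RNA per adipocyte cannot be told apart.

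Acvr1c was also measured against these markers. The log2(CPM + 1) of Acvr1c less the mean log2(CPM + 1) of the 10 markers was -4.37 ± 0.50 for WT CD, -4.24 ± 0.16 for WT HFD, -4.30 ± 0.70 for HoipA-KO CD and -4.49 ± 0.20 for HoipA-KO HFD (SD, n = 3 libraries each). The difference between HoipA-KO and WT, permuted within diet, was -0.092 on the log2 scale (two-sided exact permutation test over 400 arrangements, p = 0.695, smallest possible 0.005). It was 0.063 on CD (exact p = 0.9) and -0.25 on HFD (exact p = 0.2), where 3 against 3 libraries cannot go below 0.1. The HFD difference was larger than the SD of either group, and the CD difference was smaller. This difference had no stable direction, with 0.034 when WT CD replicate 3 was left out and 0.024 when HoipA-KO CD replicate 3 was. Such a p does not show that Acvr1c and the markers fell by the same amount. The mean of the markers includes Cfd, Retn and Car3, which fell by more than Acvr1c on both diets. The log2 fold changes of Acvr1c, -2.45 on CD and -2.84 on HFD, lay below the marker medians of -2.08 and -2.04. This is a description with no test.

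Acvr1b, which encodes the related receptor ALK4, passed the test in neither genotype comparison. Its levels were 26.8, 31.9 and 22.7 CPM for WT CD, 49.0, 37.0 and 42.3 CPM for WT HFD, 36.7, 38.6 and 36.0 CPM for HoipA-KO CD, and 35.7, 36.0 and 31.3 CPM for HoipA-KO HFD. WT CD libraries held 3 of the 4 lowest values, and the HoipA-KO libraries lay above them on CD and below the WT libraries on HFD. Acvr1b rose with HFD in WT mice, with a log2 fold change of 0.54 (SE 0.15, adjusted p = 0.0393, edgeR), and 0.66 over 12 libraries (adjusted p = 0.0297). The call was lost with any of 10 of the 11 libraries left out, with adjusted p up to 0.169. HoipA-KO against WT gave 0.34 on CD (SE 0.15, adjusted p = 0.0968, edgeR) and -0.32 on HFD (SE 0.13, adjusted p = 0.135, edgeR).

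Levels of different genes were set side by side as CPM per kb of exon. In WT mice on CD the order was Acvr1c (9.59 ± 3.12, SD, n = 3), Inhbb (9.33 ± 4.50), Acvr1b (6.14 ± 1.05), Acvr2a (3.54 ± 0.14), Smad3 (3.43 ± 1.00), Fst (0.795 ± 0.11), Acvr2b (0.505 ± 0.016), Inhba (0.115 ± 0.022) and Gdf3 (0.0812 ± 0.089). Neighbours whose libraries overlapped were Acvr1c and Inhbb, Inhbb and Acvr1b, Acvr2a and Smad3, and Inhba and Gdf3. In WT mice on HFD the order was Inhbb (15.6), Acvr1b (9.68), Acvr1c (8.52), Smad3 (6.71), Acvr2a (4.53), Gdf3 (2.40), Fst (2.35), Acvr2b (0.457) and Inhba (0.287). There, Acvr1b overlapped with Acvr1c, Acvr1c with Smad3, Acvr2a with Gdf3, and Gdf3 with Fst.

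In HoipA-KO mice the order was another. On CD it ran Acvr1b (8.39), Gdf3 (6.71), Smad3 (4.77), Inhbb (3.71), Fst (3.46), Acvr2a (3.31), Acvr1c (1.93), Acvr2b (0.318) and Inhba (0.249), with overlap between neighbours from Acvr1b down to Acvr2a. On HFD it ran Gdf3 (8.46), Acvr1b (7.78), Smad3 (5.83), Fst (4.74), Inhbb (4.57), Acvr2a (3.48), Acvr1c (1.19), Inhba (0.370) and Acvr2b (0.335), with overlap between Gdf3 and Acvr1b, Smad3 and Fst, Fst and Inhbb, and Inhba and Acvr2b. Acvr1c thus went from rank 1 on CD and rank 3 on HFD in WT mice to rank 7 on both diets in HoipA-KO mice, and Gdf3 from ranks 9 and 6 to ranks 2 and 1. Of the summed CPM per kb of both type I receptors, Acvr1c made up 52.1% to 68.5% in WT CD and 36.9% to 54.8% in WT HFD. It made up 17.2% to 21.3% in HoipA-KO CD and 9.83% to 16.1% in HoipA-KO HFD.

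**Figure D2:**
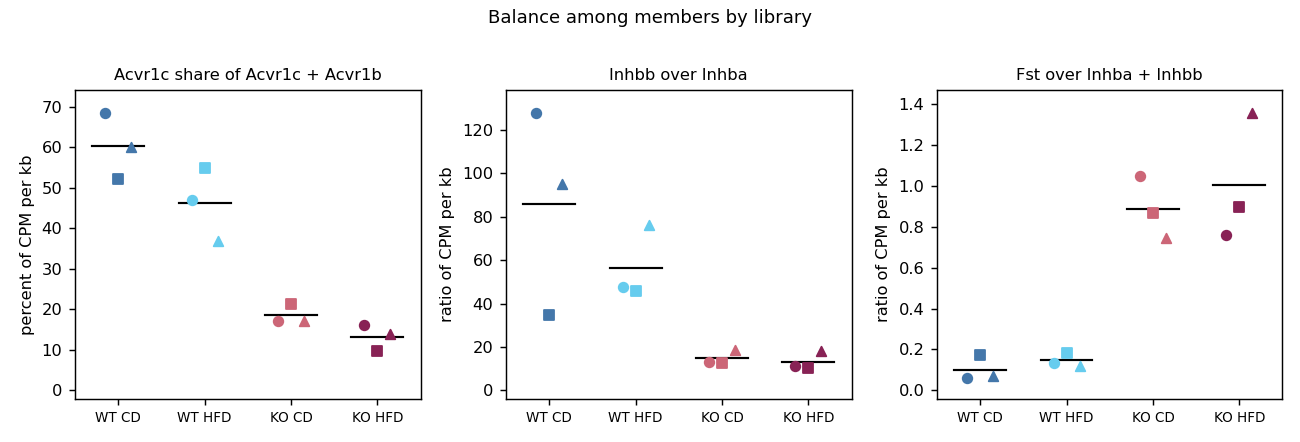
The panels plot the share of Acvr1c in the summed CPM per kb of Acvr1c and Acvr1b (percent), the ratio of Inhbb to Inhba, and the ratio of Fst to the sum of Inhba and Inhbb, each from CPM per kb, for the 12 libraries. Points are libraries and bars group means. In all 3 panels the HoipA-KO libraries lie on one side of the WT libraries, with Fst ratios of 0.745 to 1.36 against 0.0614 to 0.184.

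In the main fit neither type II receptor passed the threshold in a genotype comparison. Acvr2a levels were 20.6, 19.2 and 20.6 CPM for WT CD, 24.5, 24.3 and 28.5 for WT HFD, 19.4, 23.5 and 13.5 for HoipA-KO CD and 19.6, 20.7 and 19.0 for HoipA-KO HFD. HoipA-KO against WT gave Acvr2a a log2 fold change of -0.080 on CD (SE 0.21, adjusted p = 0.784, edgeR) and -0.38 on HFD (SE 0.18, adjusted p = 0.187, edgeR). Without HoipA-KO CD replicate 3, its lowest library, the first value was 0.0071. Acvr2b, the scarcer of the type II receptors, had 2.03, 1.91 and 2.01 CPM in WT CD and 1.25, 1.21 and 1.28 CPM in HoipA-KO CD. On HFD it had 1.91, 1.43 and 2.05 CPM in WT and 1.53, 1.24 and 1.18 CPM in HoipA-KO mice, where the groups overlapped. For the genotype the log2 fold change was -0.65 on CD (SE 0.28, adjusted p = 0.0875, edgeR) and -0.45 on HFD (SE 0.25, adjusted p = 0.244, edgeR), so neither passed the threshold. On CD its groups did not overlap. DESeq2's Wald test did call it there, with an adjusted p of 0.0329, and so did edgeR with at least 10 counts in every library (adjusted p = 0.0371). Acvr2a overlaps the gene Orc4 on the opposite strand, Acvr1c, Acvr2b, Inhba and Fst overlap annotated antisense genes, and the sources used here do not say whether the counting used the strand.

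Inhbb, the gene of the activin B subunit and the most abundant of the 3 member ligand genes in WT mice, fell in HoipA-KO mice. It had 59.0, 20.7 and 39.3 CPM in WT CD and 15.2, 12.2 and 19.9 CPM in HoipA-KO CD. On HFD it had 54.5, 70.6 and 74.5 CPM in WT and 26.2, 15.8 and 16.3 CPM in HoipA-KO mice. On HFD the groups lay far apart, while on CD WT replicate 2 came within 1 CPM of the highest HoipA-KO library. The log2 fold change was -1.33 on CD (SE 0.40, adjusted p = 0.0269, edgeR) and -1.77 on HFD (SE 0.37, adjusted p = 0.0219, edgeR), that is 2.52-fold and 3.42-fold lower. Over 12 libraries the adjusted p was 0.0195 on CD and 0.0377 on HFD. The CD value depended on which WT CD library was the control. With replicate 2 alone, the library with epididymal transcripts, the log2 fold change was -0.39 (adjusted p = 0.418, edgeR), and with replicate 1 alone it was -1.90 (adjusted p = 0.00326, edgeR). Without HoipA-KO CD replicate 1 or 2 the adjusted p was 0.0544 or 0.0854. On HFD the log2 fold change stayed between -2.05 and -1.65 with each library left out. The call was lost, with adjusted p up to 0.0838, when WT HFD replicate 1 or 2 was missing and when replicate 2 or 3 of HoipA-KO HFD was.

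Inhbb fell by less than all 10 adipocyte markers on CD and by less than 7 of them on HFD, a description with no test. Its log2(CPM + 1) less the mean of the 10 markers was -5.59 ± 0.77 in WT CD and -4.48 ± 0.21 in HoipA-KO CD (SD, n = 3). On HFD it was -4.45 ± 0.57 in WT and -3.73 ± 0.34 in HoipA-KO mice. The diet gave a log2 fold change of Inhbb of 0.74 in WT mice (SE 0.41, adjusted p = 0.248, edgeR) and of 0.30 in HoipA-KO mice (SE 0.36, adjusted p = 1, edgeR). The value in WT mice ranged from 0.18 to 1.70 with 1 library left out. The upper end had an adjusted p of 0.0153 (edgeR), and there WT CD replicate 2, the library with epididymal transcripts, was the remaining control.

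**Figure D3:**
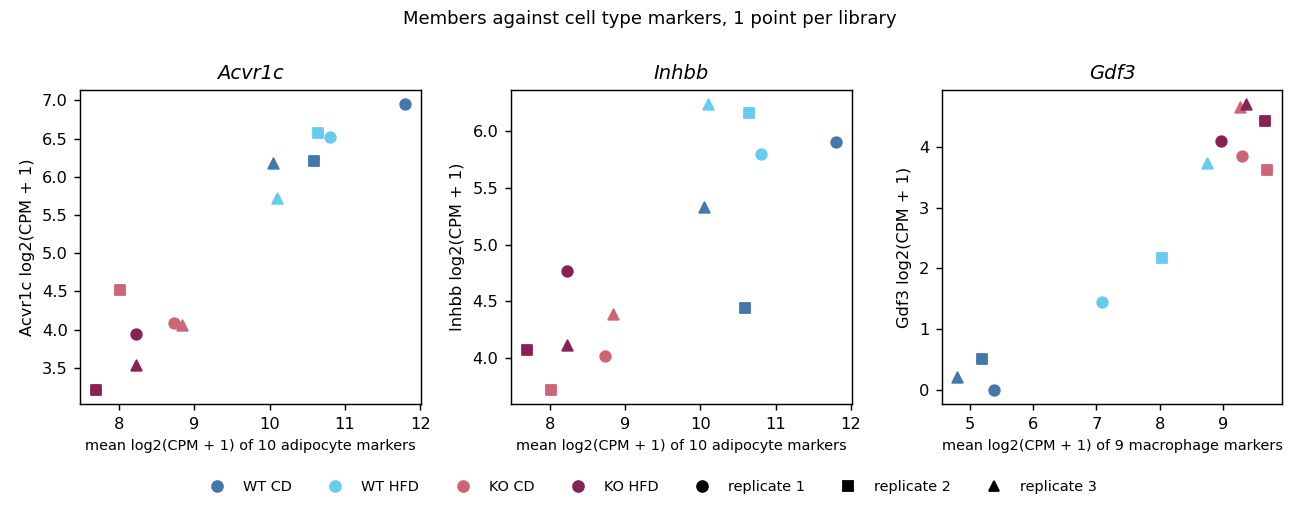
Each point is 1 of 12 libraries, with the mean log2(CPM + 1) of a marker list on the horizontal axis and the log2(CPM + 1) of a member on the vertical axis, for Acvr1c and Inhbb against 10 adipocyte markers and Gdf3 against 9 macrophage markers. Colours are groups and symbols replicates. Acvr1c and Gdf3 rise with their marker lists across the groups, while WT CD replicate 2 holds less Inhbb than the other WT libraries at a similar marker level.

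Inhba, the gene of the activin A subunit, was scarce in every group. It had 0.692, 0.893 and 0.622 CPM in WT CD, from 29 to 42 counts, and 1.71, 2.32 and 1.47 CPM in WT HFD. HoipA-KO libraries held 1.75, 1.43 and 1.59 CPM on CD and 3.49, 2.25 and 1.35 CPM on HFD. All WT CD libraries were lower than all the others, and the other 3 groups overlapped. The log2 fold change of HoipA-KO against WT on CD was 1.01 (SE 0.42, adjusted p = 0.0851, edgeR), and it was 1.11 over 12 libraries (adjusted p = 0.0460). In WT mice HFD against CD gave 1.21 (SE 0.42, adjusted p = 0.0818, edgeR), and 1.32 over 12 libraries (adjusted p = 0.0454). On HFD the genotypes differed by 0.37 (SE 0.36, adjusted p = 0.509, edgeR), and by -0.020 without HoipA-KO HFD replicate 1. Inhbb exceeded Inhba per kb by 34.8 to 128 times for WT CD and 45.7 to 76.2 times for WT HFD, and by 12.7 to 18.8 times for HoipA-KO CD and 10.5 to 18.1 times for HoipA-KO HFD.

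Gdf3, the other ligand of ALK7, was close to absent in lean WT fat and rose in HoipA-KO fat. No read was counted in WT CD replicate 1, which allows up to 0.0716 CPM at a floor of 3 counts, and there were 20 and 9 counts (0.425 and 0.165 CPM) in replicates 2 and 3. WT HFD libraries had 1.71, 3.49 and 12.2 CPM. HoipA-KO libraries had 13.5, 11.2 and 24.1 CPM on CD and 16.0, 20.5 and 25.0 CPM on HFD. WT HFD replicate 3 was the WT library that reached the range of HoipA-KO mice.

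The log2 fold change of Gdf3 on CD was 6.20 in HoipA-KO against WT mice (SE 1.23, adjusted p = 0.00423, edgeR) and 6.34 over 12 libraries (adjusted p = 0.00252). Its size depended on the few WT counts, and leaving out WT CD replicate 1 gave 5.25. With replicate 2 left out instead, the remaining control had no read, and the mean of HoipA-KO CD was at least 227-fold higher than the floor of that library. In WT mice HFD raised Gdf3 by 4.73 on the log2 scale (SE 1.16, adjusted p = 0.0274, edgeR), and by 4.86 over 12 libraries (adjusted p = 0.0167). This was 3.44 without WT HFD replicate 3 (adjusted p = 0.0812), and the call was also lost without WT HFD replicate 2 or HoipA-KO CD replicate 1 (adjusted p = 0.0502 and 0.0515). Without WT CD replicate 2, the WT HFD mean was at least 81.2-fold higher than the floor. Both folds refer to that single library and are not lower bounds for the comparisons. The fits over 11 libraries gave 73.7-fold for the genotype on CD and 26.5-fold for the diet in WT mice. On HFD the genotypes differed by 1.81 (SE 0.80, adjusted p = 0.153, edgeR), and by 2.98 without WT HFD replicate 3 (adjusted p = 0.0498).

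Macrophage markers moved with Gdf3. All 9 (Adgre1, Cd68, Csf1r, Lgals3, Cd14, Mrc1, Ctss, Lyz2 and Fcgr1) rose in HoipA-KO mice on CD (median log2 fold change 4.53), and all 9 rose with HFD in WT mice. On HFD 4 of 9 rose in HoipA-KO mice (median 1.31). None of the 9 did over 12 libraries (edgeR, adjusted p from 0.0700 to 0.314), while 8 had an unadjusted p under 0.05 over 11 libraries and DESeq2 called 8. Cd68, a lysosomal protein of macrophages, rose by 5.86 on CD and 1.57 on HFD, and Ctss, the gene of cathepsin S, by 5.53 and 1.57. The summed level was 435 to 717 CPM for WT CD, 2350 to 7332 for WT HFD, 14234 to 18924 for HoipA-KO CD and 9033 to 16973 for HoipA-KO HFD. Of 8 markers of lipid-associated macrophages, 7 rose on CD and 3 on HFD in HoipA-KO mice. Over 12 libraries 7 were called on CD and none on HFD (edgeR, adjusted p from 0.0633 to 0.274), while over 11 libraries all 8 had an unadjusted p under 0.05 on HFD and DESeq2 called 7. Both of these counts include Lpl, which went the other way. It fell in HoipA-KO mice on HFD by 0.86 on the log2 scale (adjusted p = 0.0230, DESeq2). Its estimate on CD was -0.52 (adjusted p = 0.283, edgeR). Gpnmb and Mmp12 rose by 7.92 and 7.85 on CD, and Trem2, the receptor that defines these cells, by 1.69 on HFD (adjusted p = 0.0863 over 12 libraries).

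Set against the macrophage markers, the log2(CPM + 1) of Gdf3 less the mean of the 9 markers was -4.88 ± 0.44 for WT CD, -5.51 ± 0.44 for WT HFD, -5.38 ± 0.73 for HoipA-KO CD and -4.92 ± 0.29 for HoipA-KO HFD (SD, n = 3). The difference of HoipA-KO and WT within diet was 0.044 (two-sided exact permutation test over 400 arrangements, p = 0.905). It was -0.50 on CD (exact p = 0.3) and 0.59 on HFD (exact p = 0.2). The combined value averages these opposite signs, so its p describes neither diet alone. The result depended on the pseudocount, since Gdf3 was near 0 in WT CD, and with 0.1 CPM in place of 1 the difference was 1.25 (exact p = 0.02). Which cells made the transcript was not measured.

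Fst, the gene of follistatin, rose in HoipA-KO mice on both diets and with HFD in WT mice. Its levels were 3.94, 3.93 and 3.07 CPM for WT CD, 8.13, 14.3 and 9.91 CPM for WT HFD, 18.5, 12.2 and 16.8 CPM for HoipA-KO CD, and 23.4, 16.7 and 25.2 CPM for HoipA-KO HFD. The genotypes did not overlap on either diet. On CD its log2 fold change was 2.01 (SE 0.30, adjusted p = 0.00109, edgeR), or 4.04-fold, and it was 2.12 over 12 libraries (adjusted p = 0.000513). On HFD it was 1.01 (SE 0.25, adjusted p = 0.0341, edgeR), or 2.02-fold. The HFD call was lost over 12 libraries (adjusted p = 0.0734) and without WT HFD replicate 1 or 3 or any HoipA-KO HFD library (adjusted p up to 0.1251), with the log2 fold change between 0.84 and 1.27. In WT mice HFD raised Fst by 1.46 (SE 0.29, adjusted p = 0.0132, edgeR), which was no longer called without WT CD replicate 2 (adjusted p = 0.0626). Per kb, Fst amounted to 0.0614 to 0.171 of the sum of Inhba and Inhbb in WT CD and 0.122 to 0.184 in WT HFD. It amounted to 0.745 to 1.05 of that sum in HoipA-KO CD and 0.759 to 1.36 in HoipA-KO HFD.

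Smad3, a transducer shared by activin and TGF-β receptors, followed the diet in WT mice. It had 25.2, 17.4 and 14.5 CPM in WT CD and 37.1, 35.2 and 39.2 CPM in WT HFD. HoipA-KO libraries had 27.1, 24.7 and 27.4 CPM on CD and 29.8, 32.7 and 34.3 CPM on HFD. The groups of either genotype did not overlap between diets. HFD against CD in WT mice gave a log2 fold change of 0.81 (SE 0.16, adjusted p = 0.0137, edgeR), with adjusted p of 0.0598 and 0.0550 without WT CD replicate 2 or WT HFD replicate 3. HoipA-KO against WT gave 0.32 on CD (SE 0.16, adjusted p = 0.148, edgeR) and -0.20 on HFD (SE 0.14, adjusted p = 0.353, edgeR). Without WT CD replicate 1 the value on CD was 0.60 (adjusted p = 0.0131).

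**Figure D4:**
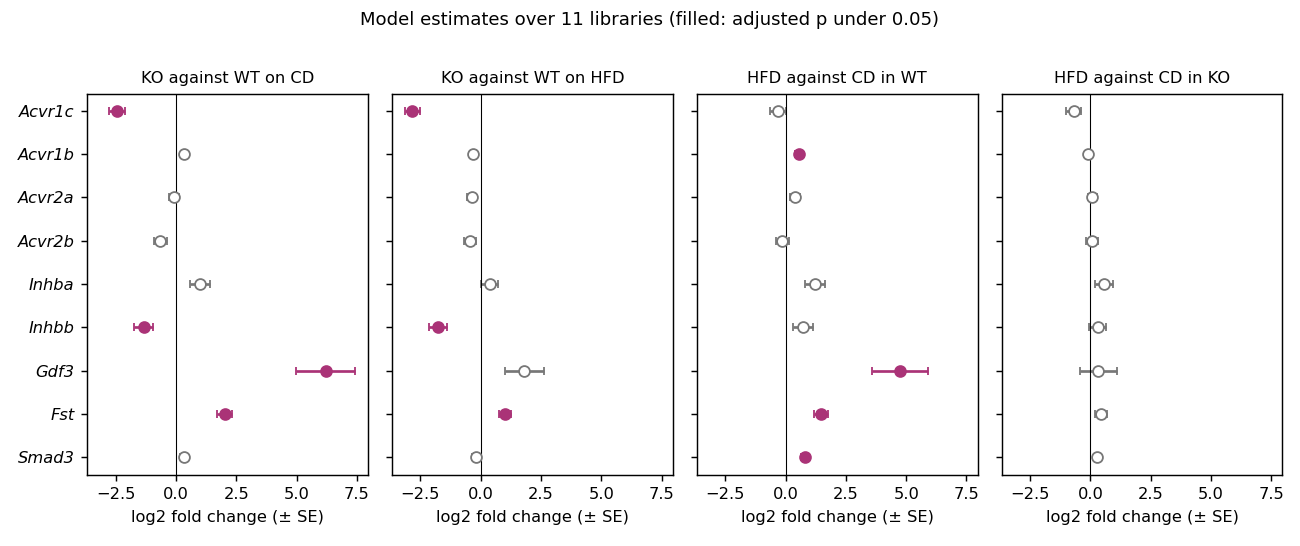
The panels plot log2 fold changes of the 9 genes from edgeR over 11 libraries for HoipA-KO against WT (KO against WT) on CD and on HFD and for HFD against CD in WT and in HoipA-KO mice, with bars for the standard error. Filled points passed an adjusted p of 0.05. Acvr1c and Inhbb are lower in both genotype comparisons, Gdf3 has the widest errors, and no point is filled for the diet in HoipA-KO mice.

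In HoipA-KO mice the diet changed none of the 9 genes past the threshold. With edgeR 0% of all genes passed it in that comparison, while 415 genes, Acvr1c among them, had an unadjusted p under 0.05, and DESeq2 called 7 genes and no member. The interaction of genotype and diet, which asks whether the genotype effect differs between diets, passed for no member either, against 3.91% of all genes. Unadjusted p-values were under 0.05 for 4 members (Acvr1b, Gdf3, Fst and Smad3), and DESeq2 called 1, Gdf3. All 4 estimates were negative, at -0.66 for Acvr1b (SE 0.20, adjusted p = 0.0969, edgeR), -4.39 for Gdf3 (SE 1.35, adjusted p = 0.0997, edgeR), -1.002 for Fst (SE 0.38, adjusted p = 0.154, edgeR) and -0.52 for Smad3 (SE 0.22, adjusted p = 0.190, edgeR). For Acvr1c it was -0.39 (SE 0.45, adjusted p = 0.645, edgeR) and for Inhbb -0.44 (SE 0.55, adjusted p = 0.673, edgeR). The interaction of Smad3 was called without WT CD replicate 1, at -0.82 (adjusted p = 0.0181, edgeR). The comparisons on CD and those of the diet in WT mice share the WT CD libraries.

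Beyond the members, 53 other genes of the superfamily and its signaling were listed, of which 46 passed the filter. On CD 5 were higher and 8 lower in HoipA-KO mice, beside 18.9% and 18.8% of all genes, so neither count was above the background. The median over the 46 was 0.0088, and over 12 libraries 6 were higher and 5 lower. On HFD 2 were higher and 3 lower (median -0.20), beside 4.2% and 7.62% of all genes, which is close to the background. Over 12 libraries 1 was higher and none lower there. With HFD in WT mice 7 were higher and 1 lower, beside 9.35% and 5.47% of all genes (median 0.28 beside 0.0036 over all genes). In HoipA-KO mice none was called for the diet by edgeR or DESeq2, with 1 at an unadjusted p under 0.05. The same shares over all genes stand beside the counts of each list below. Of 11 other ligand genes tested, Tgfb1 rose and Bmp6 fell in HoipA-KO mice on both diets. Tgfb1, the gene of TGF-β1, had 19.7 to 35.4 CPM for WT CD, 57.4 to 115 for WT HFD, 191 to 210 for HoipA-KO CD and 148 to 228 for HoipA-KO HFD. Its log2 fold change was 2.49 on CD (adjusted p = 0.000540, edgeR) and 1.21 on HFD (adjusted p = 0.0198, edgeR). Bmp6, a bone morphogenetic protein, fell by 1.86 on CD and 1.75 on HFD on the log2 scale. Over 12 libraries neither was called on HFD (adjusted p = 0.0563 and 0.0512).

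Of the 8 other receptor genes, 2 rose and 3 fell on CD and 1 fell on HFD. Tgfbr1, the type I receptor of TGF-β, rose by 1.43, and Tgfbr2, its type II partner, by 1.23 on CD. Bmpr1a, a type I receptor for bone morphogenetic proteins, fell on both diets, by 0.89 and 0.97, and was not called over 12 libraries (adjusted p = 0.0700 and 0.0767). Amhr2, the receptor of anti-Müllerian hormone, fell by 2.37 on CD, and it had 117 CPM in WT CD replicate 3 against 0.552 to 8.59 in the other libraries. The fall of Bmpr1b by 4.52 on CD rested on WT CD replicate 2, which had 61.1 CPM against 0.414 to 5.30 elsewhere and which was also the library with epididymal markers. Of 8 co-receptors and antagonists tested, Chrd (chordin, which binds bone morphogenetic proteins) fell by 1.54 on CD. It had 14.2, 25.2 and 8.98 CPM in WT CD and 8.50, 3.97 and 7.83 CPM in HoipA-KO CD. The highest value was that of WT CD replicate 2, the library with epididymal transcripts. Over 12 libraries its log2 fold change was -1.25 (adjusted p = 0.0371, edgeR). On HFD none of the 8 was called by edgeR, while 1 had an unadjusted p under 0.05 and DESeq2 called 1.

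Among 14 SMADs, partners and regulators tested, Tgif1, a SMAD corepressor, rose by 1.91 on CD, while Zfyve9 (SARA, which presents SMADs to receptors) fell by 0.64, Smad5 by 0.48 and Smad1 by 0.32. The 3 falls were not called over 12 libraries (adjusted p = 0.116, 0.0915 and 0.297). Pmepa1, a TGF-β-induced gene that restrains SMAD signaling, rose with HFD in WT mice by 1.96 (adjusted p = 0.0315, edgeR) and fell in HoipA-KO against WT mice on HFD by 1.67 (adjusted p = 0.0377, edgeR; 0.0812 over 12 libraries). Its levels were 259 to 408 CPM for WT HFD and 57.4 to 134 for HoipA-KO HFD, next to 36.7 to 113 for WT CD and 41.5 to 96.8 for HoipA-KO CD. Of 5 commonly used targets of these SMADs, Tgfbi rose by 2.39 on CD and 0.95 on HFD, and it was the 1 gene of the 53 called for the interaction, at -1.44 (adjusted p = 0.0337, edgeR).

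The last list holds 6 adipocyte genes known to be held back by ALK7 signaling, namely Pnpla2, Lipe, Adrb3, Pparg, Cebpa and Plin1. They fell together with the receptor. On CD 6 of 6 were lower (median -1.84) and on HFD 5 of 6 (median -1.77), with Cebpa the exception, and over 12 libraries 4 were lower on each diet. Adrb3, the β3-adrenergic receptor of adipocytes, fell by 5.44 on CD and 4.23 on HFD. Its levels were 222 to 718 CPM for WT CD, 99.8 to 185 for WT HFD, 9.25 to 14.3 for HoipA-KO CD and 2.703 to 10.4 for HoipA-KO HFD. Lipe, the hormone-sensitive lipase, fell by 2.14 and 2.03, and Plin1, which coats lipid droplets, by 2.01 and 2.02. Of the 6 genes, 4 are also among the 10 adipocyte markers, so this list and those markers are not separate observations.

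**Figure D5:**
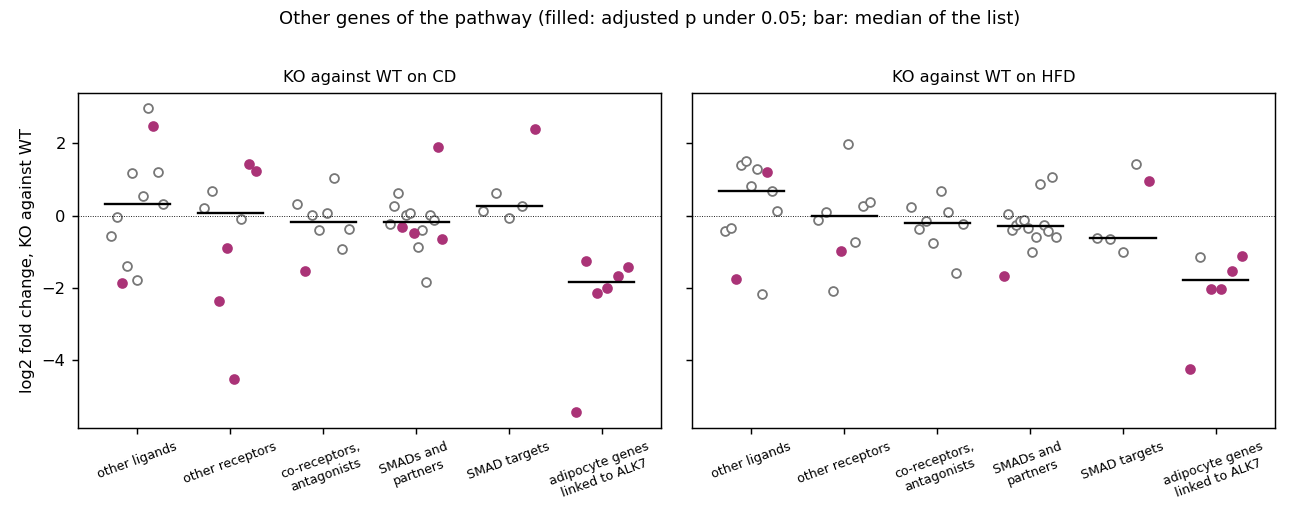
Points are genes that passed the filter, placed by list on the horizontal axis and by log2 fold change of HoipA-KO against WT (KO against WT) on the vertical axis, on CD (left) and HFD (right). Filled points passed an adjusted p of 0.05 and bars are medians of the lists. The adipocyte genes linked to ALK7 lie below 0 on both diets, and the other lists spread to both sides of it.

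Markers of further cell types varied as well, and their part in the members' values was not tested. Of 5 mast cell markers, 4 rose on CD and 2 on HFD in HoipA-KO mice. Over 12 libraries none of the 5 was called on HFD (edgeR, lowest adjusted p 0.0621), while 4 had an unadjusted p under 0.05 over 11 libraries and DESeq2 called 3. Of 7 progenitor markers, 2 rose on CD (Pdgfra and Dcn) and 1 fell on HFD (Cd55). Of 6 endothelial markers, 3 fell on each diet. Over 12 libraries 1 was lower on CD and none on HFD (edgeR, lowest adjusted p 0.0563 on HFD), while on HFD 5 had an unadjusted p under 0.05 over 11 libraries and DESeq2 called 3. Of 5 pericyte and smooth muscle markers, Pdgfrb rose and Rgs5 fell on CD and Cspg4 fell on HFD, the last not over 12 libraries (adjusted p = 0.182). None of 5 mesothelial markers was called by edgeR on either diet, with unadjusted p under 0.05 for 1 on CD and 2 on HFD and 1 called by DESeq2 on each. Of 9 epididymal markers tested, Crisp1 was lower on CD, where WT CD replicate 2 held nearly all of its reads.

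The genes most like each of 4 members were found by Pearson's r of log2(CPM + 1) over the 12 libraries, among 12278 or 12279 genes with a mean of at least 5 CPM. These values largely follow the differences between the groups and have no test. Acvr1c was most like Napepld (r = 0.981), which makes N-acylethanolamines, then Opn3 (0.980), Dynll2 (0.977), and Pcyt2 and Chpt1 (0.974 each), enzymes of phospholipid synthesis. Inhbb was most like Smad6 (0.952), an inhibitory SMAD, then Hspa12a (0.951), Slc25a25 (0.948), Acaa1b (0.945) and Arhgef10 (0.943). The log2 fold change of Smad6 itself was -0.85 on CD (SE 0.41, adjusted p = 0.128, edgeR) and -1.004 on HFD (SE 0.38, adjusted p = 0.104, edgeR). Gdf3 was most like Fbln7 and Oasl1 (0.984 each), Pcolce and Ptpn18 (0.982 each) and Ces2g (0.981). Inhba had the weakest likeness of the 4, led by Fzd2 (0.904), a Wnt receptor, and Tpm1 (0.902), a tropomyosin, then Pde5a (0.884), Sfrp1 (0.878) and Bicc1 (0.878).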

How the data were processed

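GWAT libraries were made from polyA RNA with a stranded kit, from 3 pooled mice each. Reads were trimmed (Trim Galore 0.6.7), aligned (STAR 2.7.10a) and quantified (Salmon 1.5.2) by the authors, who deposited estimated counts per gene that are not normalized. The build is GRCm38 in the submitters' processing notes, while a human assembly stands in the study's methods. The annotation release is not given in the sources used here. The 3 deposited tables of the authors' DESeq2 comparisons (fold changes and p-values, with CPM) were not used.

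Estimated counts were rounded, passed through filterByExpr, scaled by TMM and fitted in 1 model of the 4 groups over 11 libraries with edgeR 4.0.16 (quasi-likelihood test, no replicate block) in R 4.3.3. The prior count was 0.125 and p-values were adjusted by Benjamini-Hochberg over all genes tested, at 0.05. Standard errors came from the log2 fold change and the F statistic. The members and lists were chosen with earlier results of these data known. From each list at most 3 genes per genotype comparison were named, those called with the largest change and a mean of at least 1 CPM. Tgfbr2, Bmpr1a, Smad1 and the marker genes beyond 3 of a list were named after their values were seen. Depth was 30513500 to 60540260 counts per library, and the floor of 3 counts covers counting error only. Lengths are unions of exons (GENCODE, GRCm38). Alternatives were DESeq2 1.42.0 size factors or Wald test, library size only, no filter or at least 10 counts in every library, 12 libraries, protein-coding genes, a replicate block, another pseudocount and leaving out each library. Same-numbered HoipA-KO libraries of the 2 diets deviated together (r from 0.15 to 0.52), which was not so for every pair of the other groups. The fit was tested on simulated counts.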

Additional observations from a re-analysis of the deposited data

Results flagged for a closer look

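Acvr1b, the gene of ALK4, was singled out because its difference between HoipA-KO and WT libraries had opposite directions on the diets. HFD against CD gave a log2 fold change of 0.54 in WT mice (SE 0.15) and of -0.11 in HoipA-KO mice (SE 0.13). On CD each of the 3 HoipA-KO libraries (36.0 to 38.6 CPM) was above each of the 3 WT libraries (22.7 to 31.9 CPM), and on HFD each (31.3 to 36.0 CPM) was below each WT library (37.0 to 49.0 CPM). The difference of the genotype effects was -0.66 on the log2 scale (SE 0.20), with an adjusted p of 0.0969 in edgeR's quasi-likelihood test of the interaction, so it did not pass the threshold. The same pattern of libraries was seen in 121 of 18074 genes (0.669%).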

How the results depend on the processing

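The number of members called moved in some settings. For the diet in WT mice it was 2 in place of 4 with at least 10 counts in every library. For the interaction it was 1 by the Wald test of DESeq2 instead of 0, and 2 when WT CD was represented by replicates 2 and 3, a choice made after seeing the data. With each library left out in turn the number ranged from 3 to 4 on CD, from 1 to 3 on HFD, from 1 to 4 for the diet in WT mice, and from 0 to 1 for the interaction, and it was 0 throughout for the diet in HoipA-KO mice. The low counts came without WT HFD replicate 1 or HoipA-KO HFD replicate 2 or 3 on HFD, and without WT CD replicate 2 or WT HFD replicate 3 for the diet in WT mice, where fewer libraries entered the fit. Of the log2 fold changes of the members under the alternatives, 879 kept their direction and side of the threshold, 39 lost and 14 gained a call, and 8 turned. Those that turned were uncalled: Acvr1c for the diet in WT mice (0.14 without WT CD replicate 1, in a range of -0.63 to 0.14 over libraries left out, and 0.15 with WT CD replicates 2 and 3), the interaction of Inhbb (0.12 without WT CD replicate 2, range -1.39 to 0.12), Acvr2b for the diet (0.0088 in WT without WT HFD replicate 2, range -0.33 to 0.0088, and -0.037 in HoipA-KO without HoipA-KO HFD replicate 1, range -0.037 to 0.15), Acvr2a without HoipA-KO CD replicate 3 (0.0071 for the genotype on CD, range -0.27 to 0.0071, and -0.10 for the diet in HoipA-KO mice, range -0.10 to 0.27) and Inhba on HFD (-0.020 without HoipA-KO HFD replicate 1, range -0.020 to 0.65). Acvr1c relative to adipocyte markers was 0.034 over 11 libraries and 0.024 without HoipA-KO CD replicate 3, within a range of -0.29 to 0.034. Gdf3 relative to macrophage markers ranged from -0.15 to 0.22, with -0.082, -0.044, -0.15 and -0.021 without WT CD replicate 1, WT HFD replicate 2, HoipA-KO CD replicate 3 and HoipA-KO HFD replicate 3, and was 1.25 with a pseudocount of 0.1 CPM (exact p = 0.02). The cause of these shifts was not tested.

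Of 18 same-numbered pairs of libraries, 5 had a correlation of deviations over 0.1, in a range of -0.32 to 0.52. They include all 3 pairs of HoipA-KO CD with HoipA-KO HFD (0.15, 0.52 and 0.29). The numbers were therefore taken to pair libraries for the diet comparison in HoipA-KO mice and for no other comparison. No source ties them to shared animals or batches. The block in the model was a replicate effect shared by all groups, so it tied the other groups by number as well. The values given above for the diet in HoipA-KO mice come from the fit without the block. With the block that comparison called 0 members and 0 genes, as without it (edgeR). With a replicate block 4 members were called on CD, 2 on HFD and 3 for the diet in WT mice, with Fst on HFD (log2 fold change 1.00, adjusted p = 0.0534, edgeR) and Acvr1b for the diet in WT mice (0.58, adjusted p = 0.0703, edgeR) no longer called, and the marker differences were -0.092 and 0.044 (exact p = 0.656 and 0.969 with the block). Where a WT CD library was left out, the remaining 1 was assumed to vary like the other groups. Depth limits Gdf3 and Inhba in WT CD most, where single libraries held 0 to 42 counts. Without scaling factors, the median of all genes shifted by 0.11 for the diet in HoipA-KO mice, where no gene was called.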
